A study of Mus musculus with 2 samples.

Results

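A set of 8 genes that mark naive and memory T cells was followed in lymphocytes from mouse tumours: Tcf7, Lef1, Il7r, Ccr7, S1pr1, Klf2, Id3 and Bach2. They were chosen by symbol and are 8 of the 31053 genes in the deposited tables. All 8 had UMIs (unique molecular identifiers, 1 per captured RNA molecule) in both libraries. The study made single-cell RNA-seq libraries from CD45+ immune cells, sorted out of tumours that were taken from C57BL/6 mice and digested with collagenase and DNase. One library was labelled WT, with no stated modification, and 1 was labelled Ythdf2 cKO, where cKO is the usual short form for conditional knockout and Ythdf2 encodes a protein that reads the m6A mark on RNA. The labels name neither the promoter that drives the deletion nor the tumour model, age, sex or number of animals, and no treatment is listed for either group. The title of the series places the work in tumour-associated macrophages.

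Naive T cells patrol blood and lymph nodes in a resting state. A shared programme keeps them there: Tcf7 (which encodes TCF1) and Lef1 are paired HMG-box transcription factors that hold T cells in a naive or stem-like state, Klf2 is a transcription factor that maintains quiescence and drives S1pr1, and Bach2 is a repressor that restrains effector differentiation. Id3 encodes an inhibitor of E-protein transcription factors. Of the surface receptors, Il7r is the alpha chain through which interleukin 7 sustains survival, Ccr7 guides cells into lymph nodes, and S1pr1 lets them leave again. Activation of CD8 T cells by antigen is known to lower most of these genes, while B cells and NK cells use some of them in their own differentiation.

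Promoter windows of 2 genes are shown because Tcf7 and Lef1 form the transcription factor core of the programme, and because they hold matches to motifs of 3 factor families that act in lymphocytes. Each runs from 250 bases before to 50 bases after an annotated start and is printed 5′ to 3′ on the strand of the gene, from RefSeq on GRCm38.p6. The Tcf7 window is chr11:52282546-52282845 (minus strand) and the Lef1 window is chr3:131156044-131156343 (plus strand). Both are at starts inside the span of the gene. The other windows of these genes held no match. Among those were chr11:52282965-52283264 at the outer start of Tcf7 and chr3:131110047-131110346 just before the span of Lef1. Capitals mark the matches.
Tcf7: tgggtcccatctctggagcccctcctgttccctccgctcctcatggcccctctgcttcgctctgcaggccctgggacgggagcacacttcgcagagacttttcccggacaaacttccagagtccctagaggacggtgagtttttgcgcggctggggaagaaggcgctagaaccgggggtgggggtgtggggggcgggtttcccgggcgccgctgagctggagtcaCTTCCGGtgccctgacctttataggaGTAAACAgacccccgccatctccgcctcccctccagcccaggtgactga
Lef1: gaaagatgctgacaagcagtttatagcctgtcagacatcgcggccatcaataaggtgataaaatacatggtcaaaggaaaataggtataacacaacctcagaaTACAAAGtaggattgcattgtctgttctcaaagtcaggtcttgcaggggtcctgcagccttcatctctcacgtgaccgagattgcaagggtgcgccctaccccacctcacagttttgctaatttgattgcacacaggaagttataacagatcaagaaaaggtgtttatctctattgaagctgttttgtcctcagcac
Both strands were searched for the FOXO letters GTAAACA, the ETS letters CCGGAAG, and for 4 spellings of the TCF and LEF motif: CTTTGAA, then CTTTGAT, also CTTTGTA, finally CTTTGTT. The Tcf7 window holds GTAAACA and, on the opposite strand, CCGGAAG, which is printed as its reverse complement. The Lef1 window holds CTTTGTA on the opposite strand. RefSeq windows were found for 6 of the 8 genes, 10 windows in all. Of these, 1 held the FOXO letters, 1 the TCF and LEF letters and 2 the ETS letters, the other ETS match lying in Bach2 at chr4:32417185-32417484. The background was 32851 promoter windows of 300 bases, with 1 chromosome that holds none of the 8 genes left out. There the shares were 3.65% for FOXO, 16.9% for TCF and LEF and 8.86% for ETS. A match describes these letters and does not show a bound site. In GRCm38, Tcf7 spans chr11:52252371-52283014, Lef1 chr3:131110471-131224356, Il7r chr15:9505788-9530176 and Ccr7 chr11:99144196-99155077. S1pr1 spans chr3:115710433-115715072, Klf2 chr8:72319033-72321656, Id3 chr4:136143497-136145755 and Bach2 chr4:32238804-32586108. Each of the 8 is annotated as protein coding.

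There was 1 library per label, so no difference below has a replicate check and no test was made. Values are given with the library labelled WT first and the library labelled cKO second. Of 14404 and 11398 barcodes, with 128952491 and 121321782 UMIs in all, 10992 and 9086 cells were kept. Median depth was 4760 and 7404 UMIs per barcode, and 43 barcode sequences occurred in both libraries, 1 of them in gated cells of both. Cells were gated by UMIs of lineage genes. CD8 T cells had Cd3 genes with Cd8a or Cd8b1, and no Cd4 or Foxp3. CD4 T cells had Cd3 genes with Cd4, and no Cd8a, Cd8b1 or Foxp3. Foxp3 T cells had Cd3 genes with Foxp3, and no Cd8a or Cd8b1. NK cells had at least 2 UMIs of Ncr1 and Klrb1c together, and no Cd3 gene. B cells had Cd79a with another B cell gene, and no Cd3 gene, Ncr1 or Siglech. The gates held 529 and 1565 CD8 T cells, 194 and 158 CD4 T cells, 218 and 178 Foxp3 T cells, 703 and 1148 NK cells, and 266 and 156 B cells. The gates carried the wider markers of their lineage, some of which the gates had used. All 9 T cell markers reached 10 CPM in at least 1 library in the 3 T cell gates, all 7 NK markers in the NK gate and all 8 B cell markers in the B gate.

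A pair of features of the libraries touches every comparison. Ythdf2 went against the label: macrophage-gated cells had 75.3 CPM (counts per 1000000 UMIs) under the WT label and 443 CPM under the cKO label. Reads come from 5′ ends and may lie outside the deleted part, and the reason for the higher value was not tested. The libraries are called by their labels throughout, and this value was not used to check them. In CD8 T cells Ythdf2 stood at 56 CPM (95% interval 47.6 to 65.4) and 67.4 CPM (63.1 to 71.9). Droplets that held RNA of a second lineage were also unequally common. Leaving out cells with Csf1r, with more than 1 C1q UMI or with Cd79a removed 47.7% and 19% of CD8 T droplets, 50.6% and 31% of CD4 T droplets and 62.3% and 50.8% of Foxp3 T droplets. The removed CD8 T droplets had median depths of 16088 and 16619.5 UMIs and 3389 and 1299.7 CPM of the myeloid gene Lyz2, against 159 and 41.6 CPM in those kept. Values without this choice are given beside the results it changes.

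**Figure D1:**
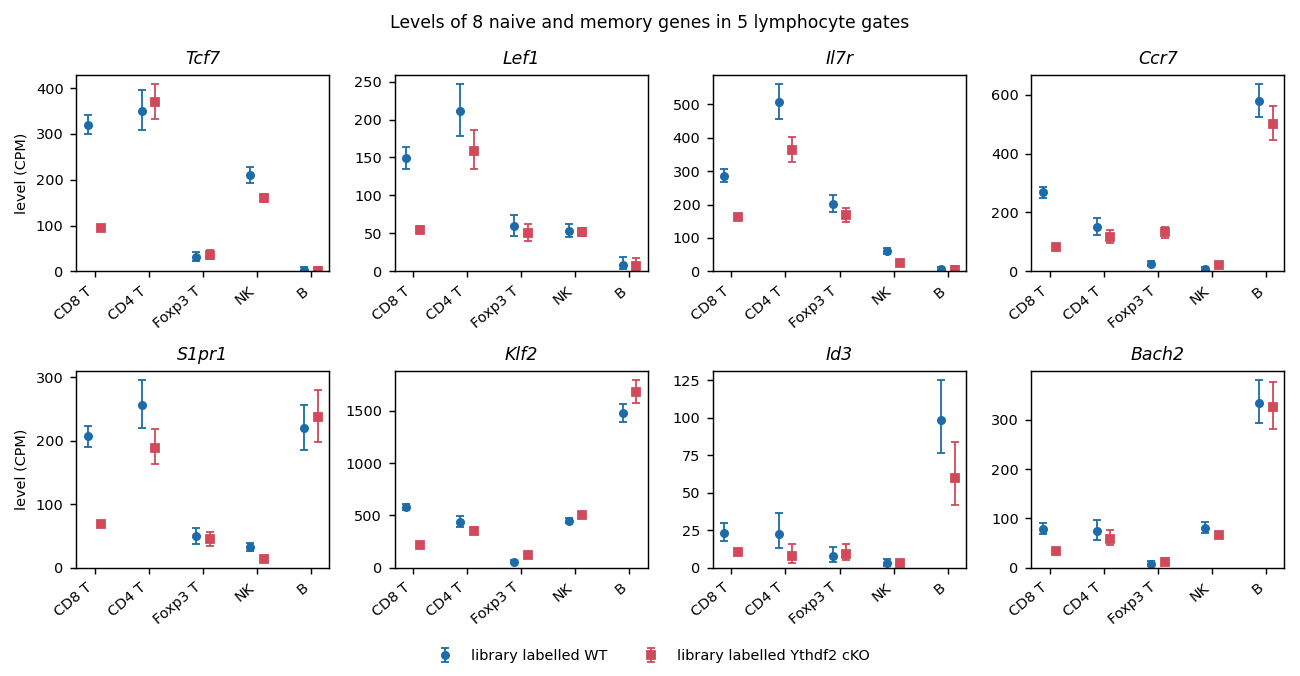
Level of each of the 8 genes in CPM (linear axis) in the CD8 T, CD4 T, Foxp3 T, NK and B cell gates, with 1 point per library and bars for the exact 95% Poisson interval. In CD8 T cells the library labelled WT lies above the library labelled cKO for every gene, for example 320.2 against 93.6 CPM for Tcf7.

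Tcf7 was high in T and NK cells and nearly missing from B cells, which gave 2 and 1 UMIs. In the library labelled WT its levels were 349.9 CPM in CD4 T cells, 320.2 in CD8 T cells, 209.8 in NK cells and 30.4 in Foxp3 T cells. The CD4 and CD8 intervals overlapped there and all other steps were separate. In the library labelled cKO the order was 369 CPM in CD4 T cells, 159.6 in NK cells, 93.6 in CD8 T cells and 35.4 in Foxp3 T cells, each step separate, so that CD8 T cells stood below NK cells. Lef1 had the same leading population, CD4 T cells at 211 and 159 CPM. It reached 149 and 55 CPM in CD8 T cells, 59.2 and 50.1 in Foxp3 T cells, 53.3 and 51.3 in NK cells, and 8.45 and 7.06 CPM in B cells from 6 and 4 UMIs. In the library labelled cKO the Lef1 intervals of CD8 T, NK and Foxp3 T cells overlapped.

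Il7r was a T cell gene in these samples, with less in NK cells. It measured 506 and 363 CPM in CD4 T cells, 285 and 164 in CD8 T cells, 203 and 168 in Foxp3 T cells, and 61.2 and 25.3 in NK cells. B cells had 5.63 and 5.3 CPM from 4 and 3 UMIs. The CD8 and Foxp3 T cell intervals were separate in the library labelled WT and overlapped in the library labelled cKO. Macrophage-gated cells had 66.4 and 75.2 CPM, so that Il7r was also found outside lymphocytes. Tcf7 there was 3.09 and 4.31 CPM.

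The homing and egress genes had a different order: B cells led for Ccr7 and Klf2 and shared the top for S1pr1. Ccr7 measured 579 and 501 CPM in B cells. It followed at 268 and 81.7 CPM in CD8 T cells, 149 and 116 in CD4 T cells, 25.1 and 132 in Foxp3 T cells and 8.95 and 22.9 in NK cells. CD8 T cells were therefore next after B cells for Ccr7 in the library labelled WT, and below Foxp3 and CD4 T cells in the library labelled cKO, where the Foxp3 and CD4 T cell intervals overlapped. Without 5 and 11 droplets that carried dendritic cell RNA, Foxp3 T cells of that library had 48.9 CPM and CD8 T cells 62.3 CPM, which turns their order. S1pr1 was similar in CD4 T cells (256 and 189 CPM) and B cells (219.6 and 237 CPM), whose intervals overlapped in both libraries, and stood at 207 and 68.5 CPM in CD8 T cells. Foxp3 T cells had 49.4 and 44.8 CPM of S1pr1 and NK cells 32.2 and 14.2 CPM. Klf2 was led by B cells at 1477 and 1683 CPM, with 579 and 219.8 in CD8 T cells, 438 and 354 in CD4 T cells, 447 and 503 in NK cells, and 59.2 and 121 in Foxp3 T cells.

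Id3 and Bach2 were likewise highest in B cells. Id3 measured 98.5 and 60.0 CPM there and no more than 23.4 CPM elsewhere, and the intervals of neighbouring populations below B cells overlapped. Bach2 measured 335 and 327 CPM in B cells, 81.6 and 67 in NK cells, 79.3 and 34.4 in CD8 T cells, and 74.5 and 59.3 in CD4 T cells. In the library labelled WT the Bach2 intervals of NK, CD8 T and CD4 T cells overlapped. In the library labelled cKO CD8 T cells stood apart below NK and CD4 T cells. Foxp3 T cells had the least Bach2, 7.59 and 12 CPM from 10 and 18 UMIs.

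The levels of the 8 genes did not follow a single order across the gates. Over the 10 profiles (5 gates in 2 libraries), Pearson's r of log2 levels was 0.94 for Tcf7 with Lef1, 0.93 for Lef1 with Il7r, 0.99 for Klf2 with Bach2 and 0.91 for Ccr7 with Id3, but -0.49 for Tcf7 with Ccr7. S1pr1 lay between, at 0.82 with Ccr7, 0.48 with Klf2, 0.51 with Bach2 and -0.20 with Tcf7. These are descriptions, since profiles of 1 library share their depth and processing. Among 7224 other genes, the closest to Tcf7 included Kif1b and Utrn (each r = 0.982), and those closest to Lef1 were Bzw2 (0.975), Itpkb (0.975) and Celsr1 (0.964). Il7r was most like Itpkb (0.976), Pde4d (0.976) and Chst2 (0.974). Ccr7 was most like Acp5 (0.953), Dus2 (0.951) and Traf5 (0.902), and S1pr1 was most like Dtx1 (0.956), Prkdc (0.927) and Pkd1 (0.924). Klf2 and Bach2 shared 2 of their 3 nearest genes, Mylip (0.973 and 0.981) and Rlim (0.969 and 0.980). Their remaining neighbours were Ppan (0.970) for Klf2 and Ripor2 (0.988) for Bach2. Id3 went with Ralgps2 (0.940), Add3 (0.938) and Dus2 (0.938). Kif1b, for instance, had 178 and 94.3 CPM in CD8 T cells and 145 and 131 CPM in NK cells.

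In CD8 T cells all 8 genes were lower in the library labelled cKO. A gene is called higher or lower here when its CPM differ at least 1.5-fold and reach 10 in either library. By this rule 5.14% of the 7785 genes measured in CD8 T cells were lower and 9.56% were higher. The median log2 ratio of the 8 genes was -1.41, against 0.10 for all genes measured. Log2 ratios use a pseudocount of 1 CPM, and intervals cover counting error alone.

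Tcf7 was 3.42-fold lower (95% interval 3.14 to 3.73), from 904 UMIs in 529 cells and 1267 UMIs in 1565 cells. Lef1 was 2.7-fold lower (2.39 to 3.05). The trafficking receptors showed a difference of similar size: Ccr7 was 3.29-fold lower (2.99 to 3.61) and S1pr1 was 3.02-fold lower (2.72 to 3.35). Klf2, which is known to drive S1pr1, was 2.63-fold lower (2.48 to 2.8). Bach2 was 2.3-fold lower (1.96 to 2.71), Id3 was 2.18-fold lower (1.61 to 2.94) from 66 and 145 UMIs, and Il7r differed least, at 1.74-fold lower (1.6 to 1.89). Its call was lost in thinned cells, at a log2 ratio of -0.58, and without cycling cells, at -0.52, in place of -0.80.

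Without the exclusion of droplets with RNA of other lineages, 3 of the 8 genes were lower in CD8 T cells and the median log2 ratio was -0.56. The share and median of all genes given above belong to the gate with the exclusion, and none is given without it. Tcf7 then measured 131 and 80.3 CPM, Ccr7 118 and 75.1 CPM and Id3 19.3 and 11.8 CPM, which were the 3 past 1.5-fold. Klf2 measured 298 and 202 CPM, S1pr1 80.9 and 54.3, Lef1 63.2 and 45.3, Il7r 162 and 143, and Bach2 33.9 and 30.4 CPM. All 8 values stayed below in the library labelled cKO. The share of RNA of other cell types in the kept cells also differed between libraries: 8 of 11 measured macrophage and monocyte markers were lower in the library labelled cKO, with Csf1r at 0 in both by the gate. The summed level of that list was 2084 and 2371 CPM, of which Ly6c2, a gene that CD8 T cells also express, made up 1347 and 1953 CPM. Melanocytic markers summed to 74.7 and 7.17 CPM, with 3 of 3 measured lower. The part of these in the differences was not tested.

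Other genes of the naive and memory programme were also lower in CD8 T cells. Of 20 measured companions of the 8 genes, 13 were lower and 0 were higher, with a median log2 ratio of -0.88. Nsg2 measured 75.1 and 17.8 CPM, Treml2 52.8 and 13.7, and Dapl1, a marker of resting T cells, 131 and 39 CPM. The survival gene Bcl2 measured 348 and 146 CPM, the stemness factor Myb 68.7 and 28.4, and the chromatin organiser Satb1 474 and 231 CPM.

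Direct partners of the 8 genes did not show the same difference. Of 24 measured, 4 were higher and 1 was lower, with a median log2 ratio of 0.18. Id2, the counterpart of Id3 in effector cells, measured 383 and 1024 CPM, and Cish, a feedback inhibitor of cytokine signals, 98.5 and 166 CPM. The E-protein gene Tcf12 measured 126 and 84.1 CPM and the Groucho-family corepressor Aes 289 and 367 CPM, both within 1.5-fold. Another sphingosine phosphate receptor, S1pr4, measured 53.8 and 78.8 CPM, on the opposite side from S1pr1 and also within 1.5-fold.

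Effector genes were on the other side in the same cells. Of 17 measured, 16 were higher and 0 were lower, with a median log2 ratio of 1.42. The granzyme genes Gzmb and Gzma measured 141 and 1476 CPM and 234 and 1758 CPM, the pore-forming Prf1 111 and 365 CPM and the cytokine Ifng 198 and 571 CPM. Of 11 measured exhaustion genes 7 were higher and 0 lower, among them the inhibitory receptors Pdcd1 (60.6 and 123 CPM), Lag3 (106 and 270.2 CPM) and Havcr2 (30.1 and 100.0 CPM). Cell cycle genes were higher in 14 of 15, with Top2a at 127 and 272 CPM. Of 15 dissociation stress genes 3 were higher and 0 lower.

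Shares of cells were compared after each CD8 T cell was thinned to 3344 UMIs, which left out 105 and 68 shallower cells and kept 424 and 1497. Tcf7 was detected in 56.4% (51.5 to 61.1) and 18.6% (16.7 to 20.7) of the thinned cells, and in 65.8% and 27% before thinning. At the same depth 0.554% and 1.04% of macrophage-gated cells, whose median depths were 10679 and 14177 UMIs, had a Tcf7 UMI. Ccr7 was detected in 41.3% and 11.2% of thinned cells, S1pr1 in 42.2% and 20.9%, Lef1 in 36.8% and 15.6%, and Bach2 in 22.9% and 10.2%. Il7r was closer, at 47.4% and 35.4%. Klf2 was found in 56.6% and 35.6%, beside 29.1% and 22.8% of macrophages, which express it. For Id3 the shares were 7.31% and 3.67%, beside 4.2% and 4.8% of macrophages, which had 14.3 and 20.2 CPM of Id3.

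A smaller share of the CD8 T gate carried several of the genes at once in the library labelled cKO. Of thinned cells, 58.5% and 22.4% had at least 3 of the 8 genes, and 28.1% and 4.68% had at least 5. In number, 248 of 424 and 336 of 1497 cells had at least 3, and 119 and 70 cells at least 5. The gate was larger in the library labelled cKO, so a lower share did not mean fewer cells with at least 3. None of the 8 was detected in 10.1% and 30.2% of cells. No cell carried all 8, which allows a share of up to 0.708% and 0.2% (3 cells of the total). At the same depth 0.396% and 0.418% of macrophage-gated cells had 3 or more.

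**Figure D2:**
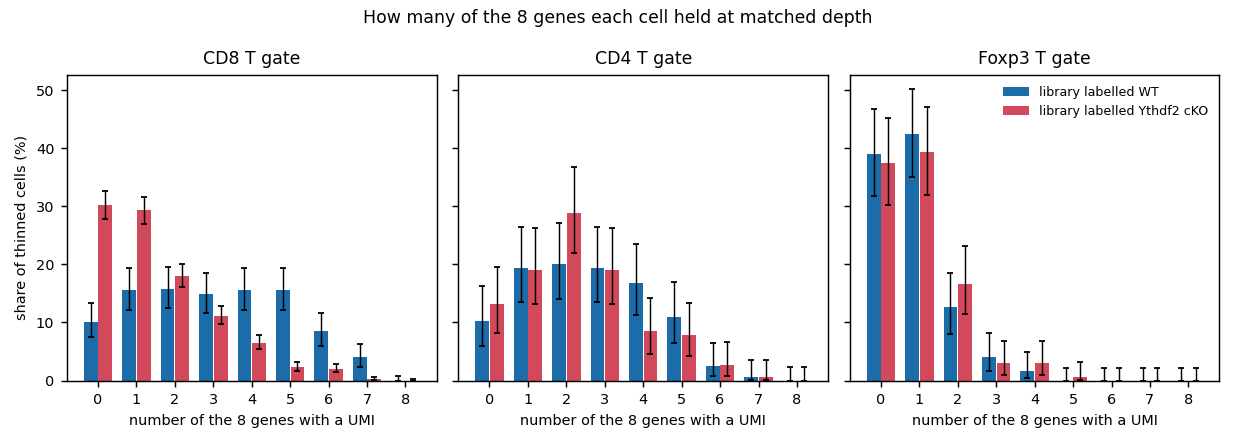
Percent of cells by the number of the 8 genes detected, after thinning the cells of a gate to one depth, for both libraries. In CD8 T cells the library labelled cKO has its highest shares at 0 and 1 genes, with 30.2% of cells at 0 against 10.1% in the library labelled WT.

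Lef1, Ccr7 and S1pr1 were detected more often in CD8 T cells with Tcf7 than in those without, in either library. Lef1 was detected in 50.2% of thinned cells with Tcf7 and in 19.5% of those without in the library labelled WT, and in 37.6% and 10.6% in the library labelled cKO. Ccr7 followed at 55.6% against 22.7% and 31.5% against 6.49%, and S1pr1 at 56.1% against 24.3% and 35.1% against 17.7%. Cells with both Tcf7 and Lef1 were 1.36 and 2.41 times as frequent as the product of their separate shares. Ccr7 with Tcf7 was 1.35 and 2.83 times as frequent. The highest value such a ratio can reach is set by the larger share, here Tcf7 at 56.4% and 18.6%. It was therefore lower in the library labelled WT, and these ratios are not compared between the libraries. Id3 was an exception in some pairs: Il7r with Id3 stood at 0.953 and 0.616 times that product. S1pr1 with Id3 stood at 0.688 (9 cells) and Ccr7 with Id3 at 0.938 in the library labelled WT. Detection at a fixed depth still rests on few UMIs per gene, so these are descriptions.

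Cells with Tcf7 still differed between the libraries. Per thinned cell with Tcf7, Ccr7 measured 349 and 176 CPM, Klf2 861 and 526 CPM, S1pr1 279 and 166 CPM and Lef1 245 and 174 CPM. Il7r was closer at 387 and 307 CPM, and Id3 was on the other side at 25 and 33.2 CPM from 20 and 31 UMIs. Gzmb measured 33.8 and 341 CPM in the same cells and Gzma 23.8 and 638 CPM. Cells without Tcf7 had 239 and 1612 CPM of Gzmb, so that in both libraries Gzmb was lower where Tcf7 was detected.

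Other genes were also higher with Tcf7 in CD8 T cells of both libraries. Of 5043 genes compared, the 8 with the highest ratio in the library where it was lower included Klf3, a Krüppel-like repressor, at 109 against 22.6 CPM with and without Tcf7 in the library labelled WT and 69.7 against 16.7 CPM in the library labelled cKO. Rflnb, which ranked first, measured 66.3 against 12.9 and 49.3 against 3.19 CPM. Il6st, the shared signalling chain of interleukin 6 family receptors, stood at 65.1 against 16.2 and 35.4 against 9.82 CPM. Treml2, Igfbp4, Atp1b1, Arhgap5 and Tdrp completed the list. On the other side stood Gzma, Gzmb, Havcr2, Lag3, Ccl3, Ccl1, Csf1 and AA467197. Lag3 measured 21.3 against 191 CPM with and without Tcf7 in the library labelled WT and 70.7 against 292 CPM in the library labelled cKO. These genes were ranked on the same cells, so their order is a description.

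Cells with both Tcf7 and Pdcd1, the pattern used to recognise stem-like cells in exhausted populations, were rarely detected at the thinned depth in both libraries. Thinning lowered detection of Pdcd1 from 16.1% and 40.8% of cells to 13.4% and 24.5%, and of Tcf7 from 65.8% and 27% to 56.4% and 18.6%. Cells that express both genes can therefore be missed, and joint detection before thinning was not counted. They made up 2.36% (1.14 to 4.29) and 1.67% (1.08 to 2.46) of thinned CD8 T cells, 10 and 25 cells. Tcf7 without Pdcd1 was found in 54% and 17% of cells, and Pdcd1 without Tcf7 in 11.1% and 22.8%. Among cells with Tcf7, Pdcd1 was detected in 4.18% and 8.96%, against 25.4% and 28.1% of cells without. Tcf7 with Havcr2 was seen in 3 and 13 cells.

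The make-up of the CD8 T gate differed between the libraries, and the 8 genes were read again inside strata set by genes outside the list. Cycling cells had a UMI of Mki67 or Top2a. Cells without Gzmb that were not cycling made up 72.4% and 23.4% of the thinned cells, and cells with Gzmb that were not cycling 10.1% and 53.2%. In the stratum without Gzmb, Tcf7 measured 419 and 270.1 CPM, Ccr7 321 and 192, Klf2 779 and 495, and S1pr1 231 and 147 CPM. Il7r there was 336 and 302 CPM and Id3 25.3 and 26.4 CPM. Among cells with Gzmb, 43 and 796 in number, Tcf7 measured 69.5 and 36.8 CPM, Lef1 118 and 36.8 CPM and Ccr7 132 and 25.5 CPM. Il7r was the exception there at 160.0 and 195 CPM. In cycling cells Tcf7 measured 234 and 50.4 CPM, Bach2 72.7 and 16.2 CPM, and Il7r 283 and 136 CPM.

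With each stratum weighted as in the library labelled WT, 6 of the 8 genes were lower and the median log2 ratio was -0.68 in place of -1.41. No share of all genes is given for these weights. Ccr7 then stood at -0.92, Tcf7 at -0.75, S1pr1 at -0.70, Bach2 at -0.69, Klf2 at -0.67 and Lef1 at -0.63. Il7r at -0.24 and Id3 at -0.12 were no longer past 1.5-fold. Strata cut by 1 gene hold cells whose Gzmb was missed, and the part of the make-up of the gate in the differences was not tested further.

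**Figure D3:**
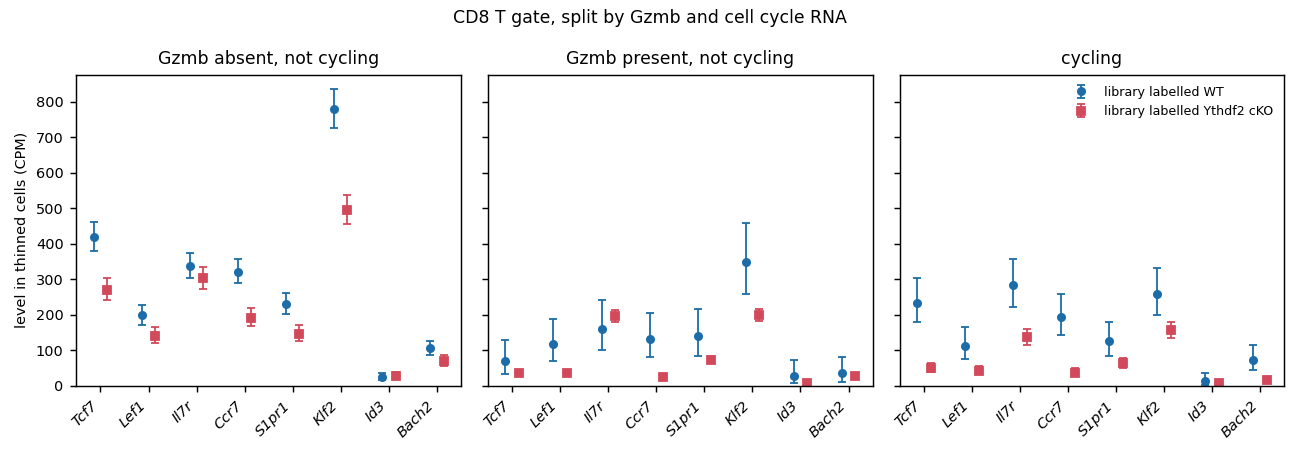
Level in CPM of the 8 genes in 3 strata of thinned CD8 T cells (no Gzmb and not cycling, Gzmb and not cycling, cycling) in both libraries, with exact 95% Poisson intervals. Tcf7 is lower in the library labelled cKO in each stratum, at 419 and 270.1, 69.5 and 36.8, and 234 and 50.4 CPM.

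CD4 T cells did not show this difference. Of the 8 genes, 1 was lower and 0 were higher, beside 11.6% and 10.6% of 8033 genes measured, so the count was near the background. Tcf7 measured 349.9 and 369 CPM, a ratio of 1.05 (0.895 to 1.24). Bach2 had a ratio of 0.797 (0.54 to 1.18) and Ccr7 of 0.776 (0.591 to 1.02). The ratios of Klf2, 0.807 (0.691 to 0.943), Lef1, 0.754 (0.599 to 0.949), S1pr1, 0.739 (0.6 to 0.911), and Il7r, 0.718 (0.618 to 0.833), lay below 1 and within 1.5-fold. Id3, the gene called lower, rested on 16 and 8 UMIs, a ratio of 0.358 (0.133 to 0.886), and without the exclusion of other lineages its log2 ratio was -0.46 in place of -1.38. The median log2 ratio was -0.38, against -0.03 for all genes. Without the exclusion of other lineages it was 0.15, with Tcf7 and Ccr7 higher at log2 ratios of 0.67 and 0.95, Bach2 at 0.37 in place of -0.32 and Il7r at 0.14 in place of -0.48. With gates set on cells thinned to 2000 UMIs the median was -0.75, with 5 genes lower. No share of all genes is given for these other settings, so their counts have no background beside them.

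Shares of thinned CD4 T cells (2371 UMIs, 155 and 152 cells) were alike for Tcf7, at 47.1% and 46.1%, and for Klf2, at 43.2% and 40.1%. Il7r was found in 58.7% and 44.7%, and S1pr1 in 34.8% and 38.8%. At least 3 of the 8 genes were detected in 50.3% and 38.8% of cells. In cells with none of the activation genes Pdcd1, Icos and Tnfrsf4, Tcf7 measured 502 and 506 CPM, and in cells with any of them 266 and 271 CPM. Ccr7 was 194 and 123 CPM in the former and 151 and 92.1 CPM in the latter. As in CD8 T cells, Lef1 went with Tcf7: it measured 335 against 149 CPM with and without Tcf7 in the library labelled WT and 211 against 123 CPM in the library labelled cKO. The costimulatory receptor Tnfrsf4 was on the other side at 52 against 375 CPM and 121 against 329 CPM, and the inhibitory receptor Ctla4 at 80.9 against 339 and 169 against 453 CPM.

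Companion genes in CD4 T cells were higher in 1 and lower in 2 of 21 measured, beside 10.6% and 11.6% of all genes in this gate. These counts were thus not above the background. The companions called lower were Dapl1 (75.9 and 35.2 CPM) and the integrin Itga6 (77.3 and 44.2 CPM). Effector genes were higher in 5 and lower in 2 of 16, with Gzma at 8.43 and 200.1 CPM and Ifng at 91.3 and 387 CPM. NK cell markers were higher in 4 of 5 measured there, and cell cycle genes were lower in 9 of 15. Dissociation stress genes were higher in 3 and lower in 0 of 15, with the heat shock gene Hspa1a at 73.1 and 237 CPM. Macrophage and monocyte markers were lower in 7 of 11, with sums of 993 and 697 CPM. The part of these markers in the values of the 8 genes was not tested.

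Foxp3 T cells had 3 genes higher and 0 lower of 7 measured, beside 6.51% higher and 9.43% lower of 8316 genes. Klf2 measured 59.2 and 121 CPM, 2.04-fold higher (1.56 to 2.7). Ccr7 measured 25.1 and 132 CPM, 5.28-fold higher (3.64 to 7.88). Bach2 was 1.58-fold higher (0.693 to 3.84) on 10 and 18 UMIs, an interval that includes no difference, and with doublets kept its log2 ratio was 0.19 in place of 0.60. It was also within 1.5-fold at a limit of 5% mitochondrial UMIs, at 0.40, and without the exclusion of other lineages, at 0.42. The ratios of the others were near 1: Tcf7 1.17 (0.759 to 1.8), S1pr1 0.907, Lef1 0.846 and Il7r 0.831 (0.696 to 0.99). Id3 was under 10 CPM in both libraries.

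Ccr7 in the Foxp3 T gate rested on few droplets. Its 33 and 198 UMIs came from 22 and 27 cells, with up to 6 and 50 in a single cell. In the library labelled cKO 5 droplets carried at least 3 UMIs of the mature dendritic cell genes Fscn1, Ccl22, Cacnb3 and Il4i1, and these held 130 of the 198 Ccr7 UMIs. Without such droplets Ccr7 measured 26.2 and 48.9 CPM, a log2 ratio of 0.87 in place of 2.35, and with gates set on thinned cells the log2 ratio was 0.15. With droplets of other lineages kept it was 1.36, from 23.9 and 63 CPM. Markers of mature dendritic cells were higher in 4 of 6 measured in this gate, with sums of 126 and 365 CPM, and Ccl22 measured 1.52 and 158 CPM. Klf2 did not share this: without those droplets its log2 ratio was 1.08 in place of 1.02. It was detected in 10.9% and 19.6% of thinned Foxp3 T cells, and its intervals were 6.7 to 16.5 and 13.9 to 26.5. With droplets of other lineages kept, the Klf2 log2 ratio was 0.11, and in thinned cells it was 1.77. In that former setting 1 gene was higher, Ccr7, and 1 was lower, S1pr1 at -0.66 in place of -0.14. Melanocytic markers in this gate summed to 1289 and 8.69 CPM, and all 5 were lower. Macrophage and monocyte markers summed to 1913 and 1099.8 CPM, with 7 of 10 lower, and their part in the Klf2 value was not tested.

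In the same gate, where 6.51% of all genes were higher and 9.43% lower, the companions were higher in 4 and lower in 1 of 16 measured. Satb1 measured 142 and 231 CPM. Of 24 partners 0 were higher and 1 was lower. All 5 regulatory T cell markers were within 1.5-fold. Of 15 dissociation stress genes 2 were higher and 2 were lower, with a median log2 ratio of 0.02.

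NK cells kept Tcf7, Lef1, Klf2 and Bach2 within 1.5-fold and had less Il7r and S1pr1. Of 7 genes measured, 1 was higher and 2 were lower, beside 2.01% and 3.71% of 7800 genes. Id3 was under 10 CPM in both libraries, at 3.22 and 3.33 CPM from 9 and 24 UMIs. Without the exclusion of other lineages it measured 11.1 and 4.61 CPM, a log2 ratio of -1.10, and 3 genes were lower. Il7r measured 61.2 and 25.3 CPM, 2.42-fold lower (1.96 to 3), and S1pr1 32.2 and 14.2 CPM, 2.28-fold lower (1.7 to 3.05). Tcf7 had a ratio of 0.761 (0.688 to 0.842), Bach2 of 0.821 (0.7 to 0.965), Lef1 of 0.962 and Klf2 of 1.12 (1.05 to 1.2). Klf2 and S1pr1 thus stood on opposite sides here. Ccr7 was the gene called higher, at 8.95 and 22.9 CPM from 25 and 165 UMIs, and 40 of the 165 lay in 1 droplet with dendritic cell RNA. Without such droplets it measured 7.92 and 17.4 CPM, and without cycling cells its log2 ratio was 0.43 in place of 1.26. With strata weighted as in the library labelled WT it was 0.55.

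Thinned NK cells (2557 UMIs, 563 and 1130 cells) had Tcf7 in 40.5% and 28.8%, S1pr1 in 7.82% and 3.01%, and Il7r in 11.7% and 4.51%. Il7r was also detected in 10.6% and 12.2% of macrophage-gated cells at that depth. In NK cells without Gzmb that were not cycling, Il7r measured 103 and 45.9 CPM, and in those with Gzmb 24.6 and 10.0 CPM. Tcf7 in the same strata measured 279 and 258 CPM and 154 and 104 CPM. NK cells without Gzmb that were not cycling were 54.7% and 32.4% of the thinned cells. Over the whole gate Gzmb measured 489 and 1432 CPM. Of the 7 NK markers 0 were higher and 2 were lower, Klra4 at 578 and 24.6 CPM and Klre1 at 643 and 395 CPM. Companions were higher in 0 and lower in 0 of 16 measured, cell cycle genes were lower in 10 of 14, dissociation stress genes were higher in 2 and lower in 0 of 15, and macrophage and monocyte markers were lower in 6 and higher in 1 of 10, with sums of 854 and 582 CPM. Among the partners, Cish was lower at 103 and 46.9 CPM and Cd69, which opposes S1pr1 at the cell surface, was higher at 102 and 158 CPM.

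B cells kept 4 of the 5 genes measured there within 1.5-fold, with 1 lower and 0 higher, beside 19% and 11.3% of 7825 genes. Ccr7 had a ratio of 0.867 (0.742 to 1.01), S1pr1 of 1.08, Klf2 of 1.14 (1.04 to 1.25) and Bach2, a factor of germinal centre and memory B cells, of 0.975 (0.8 to 1.19). Id3, which restrains E proteins in B cells, measured 98.5 and 60.0 CPM from 70 and 34 UMIs, a ratio of 0.609 (0.392 to 0.93). That call was lost without the exclusion of other lineages, where its log2 ratio was -0.31 in place of -0.71, and at a limit of 5% mitochondrial UMIs, where it was -0.38. Without droplets of dendritic cell RNA, which left 265 and 156 cells, Klf2 measured 1596 and 1683 CPM and Ccr7 635 and 501 CPM. S1pr1 then measured 241 and 237 CPM, Bach2 366 and 327 CPM and Id3 107 and 60.0 CPM. No interval was computed there, so the Klf2 interval above is for the gate with those droplets kept. In thinned B cells (1921 UMIs, 213 and 154 cells) Klf2 was detected in 76.5% and 86.4%, Ccr7 in 64.3% and 58.4%, Bach2 in 50.2% and 44.2%, and Id3 in 15.5% and 9.74%. Melanocytic markers summed to 1647 and 10.6 CPM in the B gate, and macrophage and monocyte markers, 7 of 11 lower and 1 higher, to 1543 and 1202 CPM. Dissociation stress genes were lower in 6 and higher in 0 of 15, with Hspa1a at 801 and 321 CPM. The part of these in the values of the 8 genes was not tested. Depth in this gate was the lowest of the 5, with medians of 2260 and 3496 UMIs.

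Side by side, the median log2 ratio of the measured genes was -1.41 in CD8 T cells, -0.38 in CD4 T cells, 0.21 in Foxp3 T cells, -0.28 in NK cells and -0.04 in B cells. The medians of all genes measured in those gates lay between -0.06 and 0.10. All gates come from the same pair of libraries, and the differences between gates were not tested. The gates held 1910 and 3205 of the kept cells. A further 1294 and 844 T cells that passed the lineage exclusion had no UMI of Cd4, Cd8 genes or Foxp3 and were in no gate, 386 and 283 of them with Trdc, the constant gene of the delta chain.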

How the data were processed

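Single-cell 5′ RNA-seq of sorted CD45+ tumour cells was read from 2 deposited matrices of UMI counts per gene and cell, 1 per label. Per the submitters' processing notes, Cell Ranger 5.0.1 and Seurat 4.0.4 were used with mm10; the header of the count matrices, per the file headers, names cellranger 5.0.0. The files hold counts before any normalization.

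Cells with at least 200 genes and at most 10% mitochondrial UMIs were kept. Scrublet scores (scanpy 1.11.5) ranked putative doublets, and the highest were removed at 0.8% per 1000 cells, 1187 and 779 cells. Gates needed at least 2 Cd3 UMIs for T cells and 2 UMIs of Ncr1 and Klrb1c together for NK cells. UMIs were summed per gate and library and scaled to CPM. Intervals are exact Poisson, conditional binomial or Clopper-Pearson, at 95%. Shares used cells thinned without replacement to 1 depth per gate, the lower of the libraries' 20th percentiles. With 1 library per label no p-value was computed, and nothing says how many animals a library pools. The calculation was tested on simulated data. Of 31053 gene IDs, 30934 matched GENCODE vM21.

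All 8 genes are named in every gate. From each list at most 8 genes per gate are named, those with the largest ratio among genes at 50 CPM or more in a library. For each of the 8 genes the 3 most similar genes are named, among genes at 20 CPM or more in a profile, and 8 genes per direction that go with Tcf7, among genes with at least 30 UMIs. A few list and dendritic cell genes outside this rule (among them Ctla4, Ythdf2, Fscn1, Cacnb3 and Il4i1) were named after their values were seen. Some genes that the rule would name are not reported here. The 8 genes and the lists were chosen with earlier results of these data known. Alternatives changed the cell filters, doublets, lineage exclusion, gates, scaling, depth, pseudocount, low filter, fold and stratum weights. Leaving out droplets with dendritic cell RNA and leaving out cycling cells were chosen after seeing the data.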

Additional observations from a re-analysis of the deposited data

Results flagged for a closer look

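For 2 of the 8 genes, gates differed in direction between the libraries, with each difference at least 1.5-fold, on opposite sides and with a counting interval that leaves out a ratio of 1. Ccr7 had a log2 ratio of 2.35 in Foxp3 T cells and -1.70 in CD8 T cells. In NK cells it had 1.26, again against -1.70 in CD8 T cells. Klf2 had 1.02 in Foxp3 T cells and -1.39 in CD8 T cells. Bach2 also stood on opposite sides, at 0.60 in Foxp3 T cells and -1.18 in CD8 T cells, but its Foxp3 interval of 0.693 to 3.84 included a ratio of 1. With 1 library per label none of these differences was tested. Without droplets that carry dendritic cell RNA the Ccr7 log2 ratio was 0.87 in Foxp3 T cells and 1.04 in NK cells. It was -1.97 in CD8 T cells, and the Klf2 log2 ratio in Foxp3 T cells was 1.08. Other settings brought each of the higher values within 1.5-fold. In Foxp3 T cells Klf2 stood at 0.11 without the exclusion of other lineages, and Ccr7 at 0.15 with gates on thinned cells. In NK cells Ccr7 stood at 0.43 without cycling cells.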

How the results depend on the processing

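Over 142 recomputed counts of the 8 genes past the fold, 128 lay within 1.5 times the reported count and 14 moved, and of 71 medians 65 stayed between the medians of the genes' interval bounds and 6 did not. Some of these could not move. A 2-fold limit leaves every median as it was. Dropping the low filter changes nothing in CD8 T and CD4 T cells, where all 8 genes were measured. The CD8 and NK medians stayed below 0 in every alternative. The CD4 T median was above 0 only without the exclusion of other lineages, while the medians near 0 in Foxp3 T and B cells changed sign in some. Keeping droplets with RNA of other lineages gave 3 lower genes and a median of -0.56 in CD8 T cells. In CD4 T cells it gave 2 higher, 0 lower and a median of 0.15, in Foxp3 T cells 1 higher and 1 lower, in NK cells 3 lower, and in B cells 0 lower. Gates on cells thinned to 2000 UMIs gave a CD8 median of -1.27, and in CD4 T cells 5 lower and a median of -0.75. Without cycling cells the CD8 median was -1.26 and 0 genes were higher in NK cells. Weighting strata as in the library labelled WT gave a CD8 median of -0.68, 2 lower in CD4 T cells and 0 higher in NK cells. Levels from thinned cells gave 2 lower in CD4 T cells and 1 lower in Foxp3 T cells. Equal weight per cell gave 2 lower in B cells, and a 2-fold limit gave 0. The cause of these moves was not tested. The shares of all genes belong to the reported settings, and none is given for the alternatives. Of 80 shares, 47 moved beyond their interval without thinning and 29 at 2000 UMIs. No paired analysis was possible because each label has 1 library, which also leaves no replicate to leave out. Depth limits the genes with fewest UMIs: Id3 in CD4 T, Foxp3 T and NK cells, Bach2 in Foxp3 T cells, and Tcf7, Lef1 and Il7r in B cells.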
